A study of Mus musculus with 6 samples.

Results

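*Ocln* encodes occludin, the first transmembrane protein identified at tight junctions, and it was followed across 6 mouse tibia libraries together with 8 other tight junction genes. The 9 genes were *Ocln*, *Marveld2*, *Marveld3*, *Cldn5*, *Cldn12*, *F11r*, *Tjp1*, *Tjp3* and *Cgn*, found by their GENCODE M21 symbols among the 55401 gene identifiers counted. They were chosen by the levels measured in these same libraries: *Ocln* was picked for its lower level in Atrx-cKO than in control tibias, and the others were set beside it as genes of the same structure. For that reason their differences between genotypes are described with a fold change and standard error, and no test is used to support them. RNA came from whole tibias of male mice at 8 weeks of age, 3 Atrx-cKO and 3 control, with 1 library of polyadenylated RNA per mouse. Atrx-cKO mice (*Osterix-Cre; Atrxf/y*) carried a floxed *Atrx* allele and a Tet-off Cre transgene driven by the *Osterix* (*Sp7*) promoter, which is active in osteoblast precursors, and doxycycline held the Cre silent until 3 weeks of age. Control mice (*Atrxf/y*) carried the floxed allele without the transgene, so the presence of the transgene and the loss of *Atrx* cannot be told apart. ATRX is a chromatin remodeling protein, and the libraries were made to find which genes differ in bone when osteoblast precursors lose it.

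Tight junctions seal the space between neighboring epithelial or endothelial cells. Occludin, tricellulin (*Marveld2*) and *Marveld3* form the MARVEL family of membrane proteins with 4 membrane spans, claudins build the strands that set which ions pass, and junctional adhesion molecules such as *F11r* are immunoglobulin-like proteins on the same membrane. ZO proteins (*Tjp1*, *Tjp3*) and cingulin (*Cgn*) form the plaque that ties these proteins to actin on the inner face. A tibia holds such junctions mainly in its vessels and in the sheaths of its nerves, and several of the proteins, *F11r* among them, also occur on blood cells and platelets.

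The libraries held 55178546 to 58029939 counts on genes in Atrx-cKO and 50977777 to 70571655 in control. A single count was therefore worth 0.0150 to 0.0210 CPM (counts scaled by TMM library sizes), and 0 counts in a control library allowed a level of up to 0.0450 to 0.0630 CPM (3 counts, counting error only). *Atrx* itself, counted over the whole gene in the whole tibia, lay at 153 to 171 CPM in Atrx-cKO and 165 to 174 in control libraries and gives no check of the genotypes. Osteoblast markers were abundant in every library, with a summed level of 115690 to 119390 CPM in Atrx-cKO and 109640 to 186210 in control. Skeletal muscle markers stood apart in control replicate 3, at 14376 CPM against 839 to 2917 in the other libraries.

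*Ocln* (ENSMUSG00000021638) lies on the minus strand of chr13:100496507-100552718 (GRCm38), and *Marveld2* (ENSMUSG00000021636) is its next tested neighbor, on the same strand at chr13:100595957-100616971. The bases just before their annotated starts are shown because these neighbors of the same family differed in the present counts, *Ocln* being low in 1 genotype and *Marveld2* not. The windows are 250 bases at chr13:100552719-100552968 for *Ocln* and, for *Marveld2*, the 192 bases at chr13:100616972-100617163 that separate its start from the end of the next gene, *Rad17*. Both are printed on the minus strand, 5′ to 3′, from the RefSeq promoter set for GRCm38.p6, with the GC box, GGGCGG or its reverse complement CCGCCC, in capitals.
Ocln: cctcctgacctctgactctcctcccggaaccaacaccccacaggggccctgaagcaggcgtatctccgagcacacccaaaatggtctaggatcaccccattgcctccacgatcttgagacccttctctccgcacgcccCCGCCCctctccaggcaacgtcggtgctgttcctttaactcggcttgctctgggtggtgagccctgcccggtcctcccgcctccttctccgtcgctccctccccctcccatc
Marveld2: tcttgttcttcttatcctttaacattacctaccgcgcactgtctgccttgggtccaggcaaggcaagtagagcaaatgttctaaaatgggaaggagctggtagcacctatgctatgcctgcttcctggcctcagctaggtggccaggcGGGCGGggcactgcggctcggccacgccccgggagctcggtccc
The GC box, a short element of many promoters that SP1 can bind, began at position -112 from the *Ocln* start and at -44 from the *Marveld2* start. GC content was 64.0% in the 250 bases before the *Ocln* start, with 14 CpG pairs, and 50.4% in those before *Marveld2*, with 10. Among all 32851 such windows of 250 bases the medians were 52.4% and 6 CpG pairs.

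The same 250-base windows were searched on both strands for 3 motifs in 8 of the 9 genes, which have 13 annotated starts between them. *Marveld3* had no entry. The GC box was found in 10 of the 13 windows and in 32.7% of all windows. Windows of the same gene can overlap, so some sites count more than once. The *Marveld2* boxes at -44 and -71 from its starts are the same site, as are the *Cldn12* boxes at -13 and -73. CAGGTG, the E-box that SNAIL-type repressors can bind, was found in 4 of the 13 and in 17.2% of all, and TGNGGTT, a RUNX motif, in 3 of the 13 and 12.6% of all. The 250 bases before the *Ocln* start given above held neither, whereas those before its other start, at position 100552498, held 2 E-boxes and 1 GC box. The window of *Cgn* held 6 GC boxes and had a GC content of 70.4%. Such matches describe the letters of these windows and show no binding.

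*Ocln* was a rare transcript in every tibia and was rarer in Atrx-cKO. Its counts were 5, 1 and 10 in Atrx-cKO replicates 1, 2 and 3 and 37, 44 and 37 in control replicates 1, 2 and 3. In CPM these were 0.0855, 0.0175 and 0.170 in Atrx-cKO and 0.649, 0.661 and 0.777 in control. The groups did not overlap, and the lowest control was 3.82 times the highest Atrx-cKO library. Atrx-cKO libraries averaged 0.0909 ± 0.0763 CPM and control libraries 0.695 ± 0.0711 (SD, n = 3 each), so that the SDs were similar while the coefficient of variation was 83.9% in Atrx-cKO and 10.2% in control. The log2 fold change was -2.90 with a standard error (SE) of 0.61. Summed over libraries, 16 counts stood against 118, a depth-scaled ratio of 0.133 with an exact 95% interval of 0.0737 to 0.225 that covers counting error only. *Ocln* passed the expression filter through the 3 controls alone, since no Atrx-cKO library reached the filter's 0.178 CPM (on plain library size), and so a tested *Ocln* had to be higher in control. Leaving out Atrx-cKO replicate 3, the highest of its group, gave a log2 fold change of -3.69, and leaving out replicate 2, with its 1 count, gave -2.43. In RNA from whole bone, fewer cells of a type that expresses *Ocln* and less *Ocln* RNA per cell cannot be told apart.

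**Figure D1:**
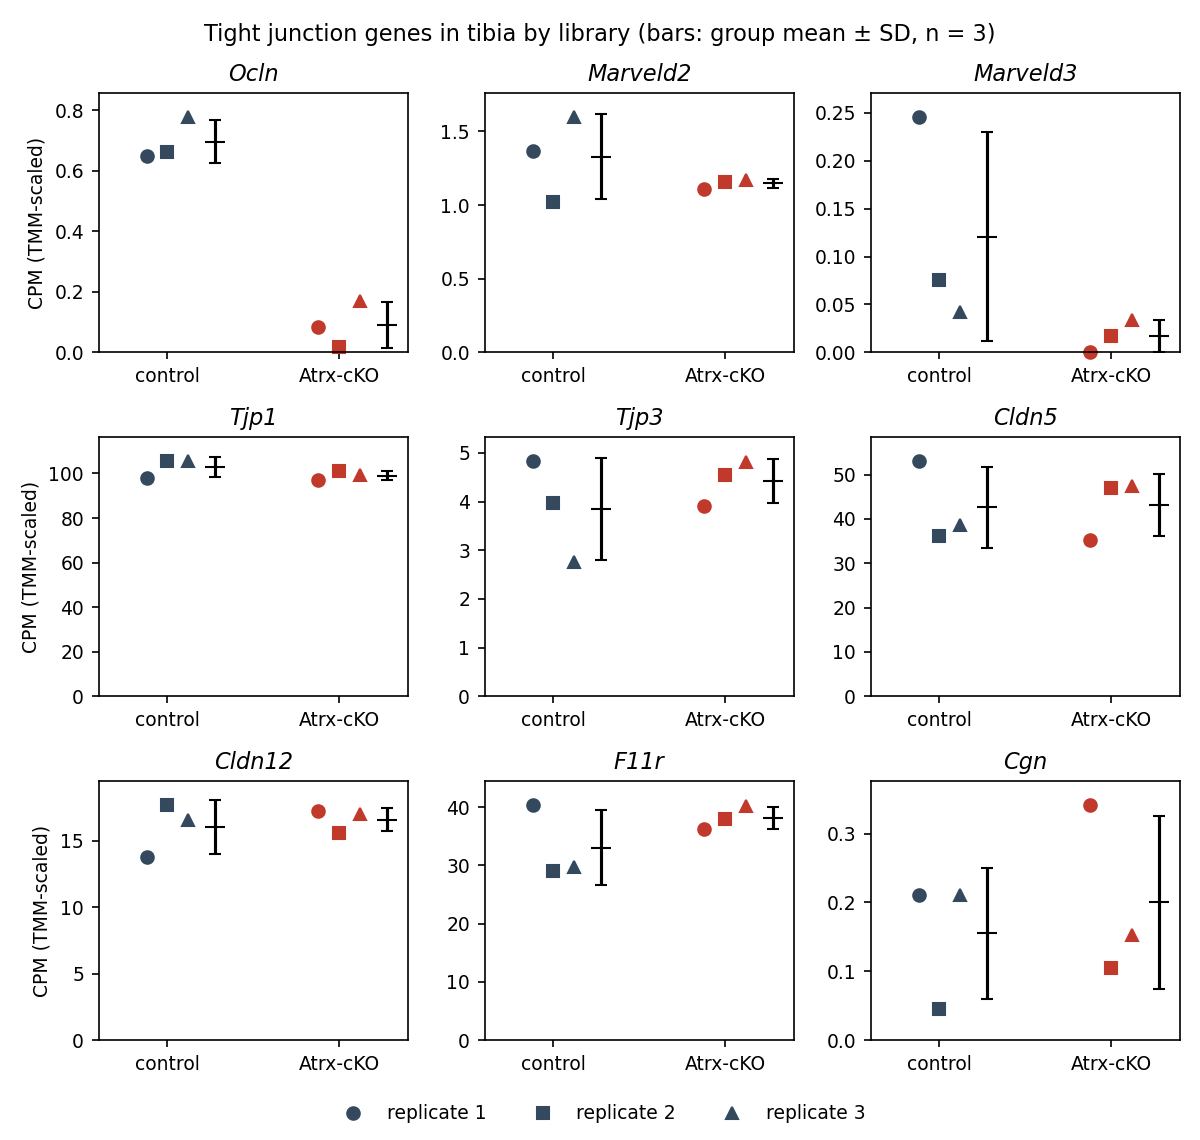
Level in CPM (vertical axis, a separate linear scale for each gene) of the 9 tight junction genes in each of the 6 libraries, with 1 point per mouse, the replicate shown by the marker, and the group mean and SD as a bar with whiskers. For *Ocln* the 3 control libraries, at 0.649 to 0.777 CPM, lie above the 3 Atrx-cKO libraries, at 0.0175 to 0.170, while most other genes have overlapping groups.

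*Marveld2* encodes tricellulin, which sits where 3 cells meet. It had 65, 66 and 69 counts in Atrx-cKO and 78, 68 and 76 in control, or 1.11, 1.16 and 1.17 CPM against 1.37, 1.02 and 1.60. The control libraries lay on both sides of the Atrx-cKO ones, so the groups overlapped, and the log2 fold change was -0.21 (SE 0.25). Because *Marveld2* was counted in the same libraries, it gives a scale for *Ocln* that does not use library size. *Ocln* counts were 7.69%, 1.52% and 14.5% of *Marveld2* counts in the Atrx-cKO libraries and 47.4%, 64.7% and 48.7% in the control libraries, without overlap. These percentages reuse the *Ocln* counts by which the gene was picked, so they restate that contrast and carry no evidence of their own.

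*Marveld3*, the remaining MARVEL gene (chr8:109947914-109962203), was near the limit of detection. It had 0, 1 and 2 counts in Atrx-cKO and 14, 5 and 2 in control, or 0, 0.0175 and 0.0340 CPM against 0.245, 0.0751 and 0.0420. All 3 Atrx-cKO libraries were at or under 3 counts, as was control replicate 3, and 14 of the 21 control counts came from replicate 1. The sums, 3 against 21 counts, gave a depth-scaled ratio of 0.140 with an interval of 0.0268 to 0.470 for counting error. *Marveld3* did not pass the expression filter and has no fitted fold change, which leaves 8 of the 9 genes tested.

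*Cldn5*, the claudin best known from vascular endothelium (chr16:18776847-18778262), had the highest level per length of the 9 genes. It measured 35.1, 47.0 and 47.4 CPM in Atrx-cKO and 53.1, 36.2 and 38.6 in control, with a log2 fold change of 0.02 (SE 0.17). The lowest value belonged to an Atrx-cKO library and the highest to control replicate 1, and the groups overlapped. *Cldn12*, a claudin of many tissues that lacks the usual binding motif for ZO proteins (chr5:5489537-5514958), measured 17.2, 15.6 and 17.0 CPM in Atrx-cKO and 13.8, 17.7 and 16.5 in control. Its log2 fold change was 0.05 (SE 0.12), and the 3 Atrx-cKO libraries fell inside the control range.

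*F11r*, which encodes JAM-A of endothelium, epithelium, leukocytes and platelets (chr1:171437535-171464603), measured 36.3, 37.9 and 40.2 CPM in Atrx-cKO and 40.5, 29.0 and 29.8 in control. The Atrx-cKO libraries were close together (38.2 ± 1.96, SD, n = 3), whereas control replicate 1 stood above the other two controls, and the log2 fold change was 0.21 (SE 0.14). Without control replicate 1 it was 0.38. The same library was the highest of the 6 for megakaryocyte and platelet markers (1945 CPM summed, against 1035 and 1037 in the other controls and 1643 to 1728 in Atrx-cKO) and for erythroid markers (1770 CPM, against 812 to 1327 in the other 5). The part of blood cells in the *F11r* values was not tested.

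The plaque genes differed widely in abundance and overlapped between genotypes. *Tjp1*, encoding ZO-1 (chr7:65296165-65527781), measured 97.1, 101 and 99.2 CPM in Atrx-cKO and 97.8, 106 and 106 in control, a log2 fold change of -0.06 (SE 0.07). Its coefficient of variation was 1.95% in Atrx-cKO and 4.36% in control, the lowest of the 9 genes in both genotypes, and its groups overlapped by control replicate 1. *Tjp3*, encoding ZO-3, a mainly epithelial ZO protein (chr10:81273207-81291581), measured 3.92, 4.55 and 4.80 CPM in Atrx-cKO and 4.84, 3.96 and 2.75 in control. Control replicate 3 was the lowest and control replicate 1 the highest, and the log2 fold change was 0.20 (SE 0.23), or -0.0044 without control replicate 3. Exons of *Tjp3* share 40 bases with *Apba3* on the opposite strand, so reads there may belong to either gene if counting did not use strand. *Cgn* (chr3:94760069-94786492) had 20, 6 and 9 counts in Atrx-cKO and 12, 3 and 10 in control, which spans 0.0450 to 0.342 CPM with overlapping groups. Its log2 fold change of 0.40 (SE 0.73) became -0.23 when Atrx-cKO replicate 1 was left out and -0.073 when control replicate 2 was.

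Among the 8 tested genes, *Ocln* was the only one whose groups did not overlap, beside 4.01% of all 20636 tested genes that were lower in Atrx-cKO without overlap. None of the 8 passed an adjusted p of 0.05 in edgeR's quasi-likelihood test, as 0.0145% of all genes did. At an unadjusted p under 0.05 the count was 1, *Ocln*, beside 2.05% of all genes in that direction, and in DESeq2 it was also 1, *Ocln*, beside 0.0693% of the genes given an adjusted p. These counts repeat the contrast by which *Ocln* was picked and carry no evidence of their own.

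Per kilobase of exon, the 9 genes covered a wide range of levels. The mean over the 6 libraries was 30.3 CPM per kb for *Cldn5*, 13.4 for *F11r*, 12.9 for *Tjp1*, 3.85 for *Cldn12* and 1.11 for *Tjp3*. Lower still were *Marveld2* at 0.366, *Ocln* at 0.0931, *Cgn* at 0.0295 and *Marveld3* at 0.0210 CPM per kb. *F11r* (10.9 to 15.2) and *Tjp1* (12.4 to 13.5) overlapped and cannot be ordered, and neither can *Cgn* (0.00748 to 0.0568) and *Marveld3* (0 to 0.0747). Neighbors in the order from *Cldn5* to *F11r* and from *Tjp1* down to *Ocln* did not overlap over the 6 libraries, with means 2.27 to 3.93 times apart. *Ocln* held its place above *Cgn* in the control libraries, at 0.154 to 0.184 CPM per kb, and overlapped *Cgn* and *Marveld3* in Atrx-cKO, at 0.00415 to 0.0402.

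**Figure D2:**
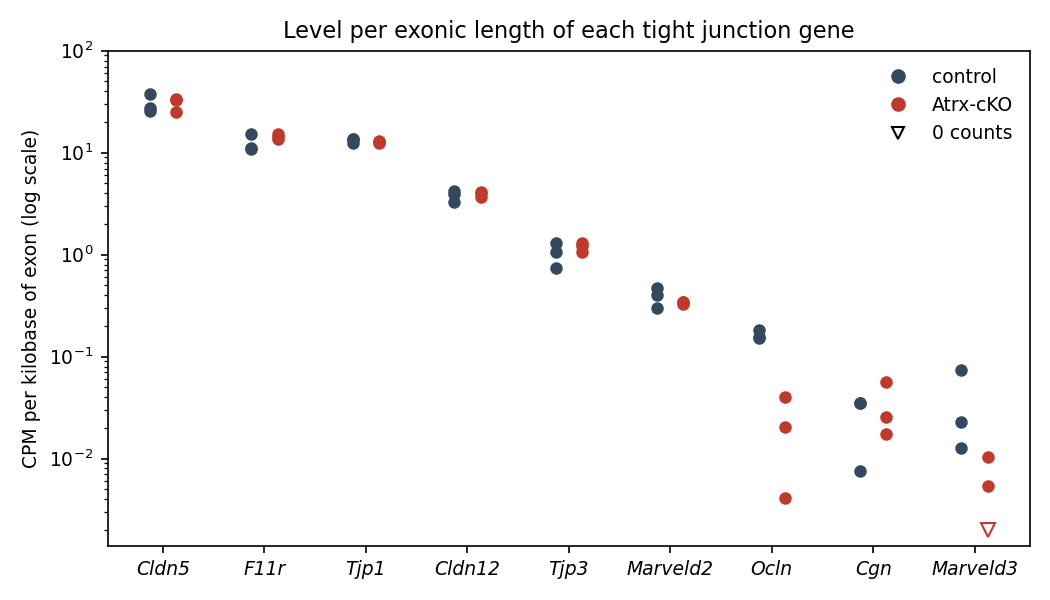
Levels of the 9 genes in CPM per kilobase of exon on a log axis, in order of the mean over the 6 libraries, with 1 point per library colored by genotype and libraries at 0 drawn at the lower edge. The order runs from *Cldn5* (mean 30.3 CPM per kb) to *Marveld3* (0.0210), and the Atrx-cKO and control points do not overlap for *Ocln*. For the untested *Marveld3* they are kept apart only by library scaling, since Atrx-cKO replicate 3 and control replicate 3 each had 2 counts.

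The other genes of the tight junction were examined to see how far the structure's transcripts differed outside the 9 genes, in lists of claudins, further membrane proteins, and plaque and polarity proteins. Of 53 genes found, 37 passed the expression filter, and none passed an adjusted p of 0.05 in edgeR's quasi-likelihood test in either direction (lowest adjusted p = 0.992). At an unadjusted p under 0.05 there was 1, *Magi2*, with the lower level in Atrx-cKO, beside 3.64% of all genes in either direction, and DESeq2 called 0, beside 0.142%. Their median log2 fold change was 0.025, beside 0.0050 for all tested genes. Of the 37 tested, 1 was higher without overlap of the groups, *Prkci*, beside 4.30% of all genes, and 2 were lower, *Tjap1* and *Magi1*, beside 4.01%. *Prkci*, the atypical protein kinase C of the polarity complex, measured 48.3 ± 2.82 CPM in Atrx-cKO and 43.1 ± 0.363 in control (SD, n = 3 each). *Magi2*, *Prkci*, *Tjap1* and *Magi1* are named after their values were seen.

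Most claudins were not detectable in tibia or nearly so. Of 21 claudins other than *Cldn5* and *Cldn12*, 7 passed the filter, and 5 (*Cldn3*, *Cldn9*, *Cldn16*, *Cldn17* and *Cldn18*) had 0 counts in all 6 libraries. The highest per length was *Cldn13*, a rodent claudin of blood-forming tissue, at 21.4 ± 1.28 CPM in Atrx-cKO and 23.0 ± 8.89 in control (SD, n = 3 each), where control replicate 1 was at 33.0. *Cldn10* measured 22.1 ± 5.63 against 19.1 ± 2.98 CPM, and *Cldn15*, a channel-forming claudin of the gut, 18.7 ± 2.23 against 15.5 ± 1.96 (SD, n = 3 each). Their log2 fold changes were -0.10 for *Cldn13*, 0.21 for *Cldn10* and 0.27 for *Cldn15*, and the groups overlapped in all 3. Over the 7 claudins tested the median log2 fold change was 0.21 with a range of -0.32 to 0.30, and 0 passed at an adjusted or unadjusted p under 0.05 in edgeR or at an adjusted p in DESeq2.

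Among 10 further membrane proteins, 8 were tested and 0 passed, also at an unadjusted p in edgeR and in DESeq2, with log2 fold changes from -0.22 to 0.19. The most abundant per length were *Clmp*, an adhesion protein of the CAR family, at 103 ± 16.5 CPM in Atrx-cKO against 109 ± 10.2 in control, *Esam* of endothelium and platelets at 52.1 ± 5.02 against 45.6 ± 4.88, and *Jam2*, encoding JAM-B, at 59.8 ± 5.12 against 67.0 ± 3.40 (SD, n = 3 each). All 22 plaque and polarity genes were tested, with a median log2 fold change of -0.042. The leading genes were *Ybx3*, a ZO-1 associated nucleic acid binding protein, at 139 ± 40.2 against 164 ± 61.0 CPM, the polarity gene *Pard6g* at 95.2 ± 9.45 against 106 ± 18.8, and the angiomotin relative *Amotl1* at 230 ± 18.2 against 249 ± 36.4 (SD, n = 3 each). *Magi2*, a scaffold with PDZ domains, measured 42.9 ± 7.11 CPM in Atrx-cKO and 60.3 ± 11.8 in control (SD, n = 3), a log2 fold change of -0.49 (SE 0.17, edgeR unadjusted p = 0.0228, adjusted p = 0.992). The list's extremes were *Magi2* and *Pard6b*, at 1.01 (SE 0.67), which had 0.473 ± 0.223 against 0.231 ± 0.180 CPM (SD, n = 3). The 37 other tight junction genes tested ranged from -0.49 to 1.01, beside -2.90 for *Ocln*, which was picked for its low level. This range leaves out genes that did not pass the filter. Among those, *Cldn22* was lower in Atrx-cKO without overlap, with 0, 5 and 5 counts against 16, 6 and 9 in control, and the others overlapped.

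**Figure D3:**
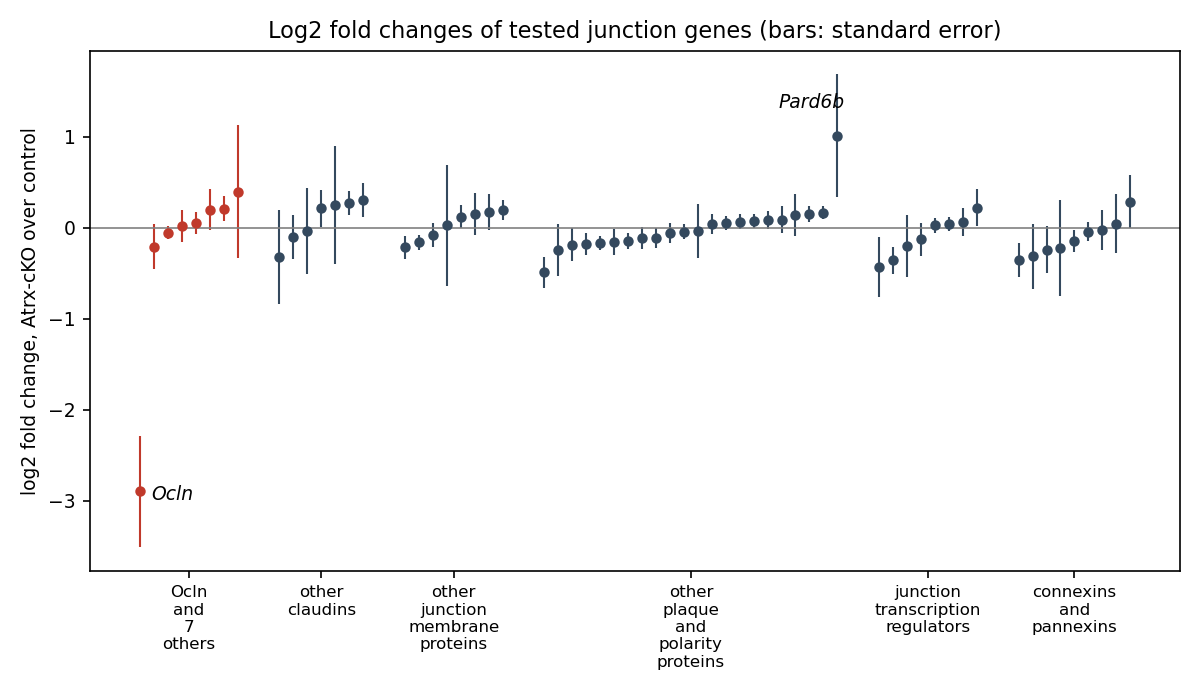
Log2 fold change (Atrx-cKO over control, edgeR, vertical axis) of each tested gene in 6 lists, where each point is 1 gene, whiskers are standard errors, and *Ocln* and the 7 other tested genes of its set are in red. *Ocln*, picked for its low level, lies at -2.90, and the other tested tight junction genes lie between -0.49 and 1.01.

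Regulators of epithelial junction genes, mostly transcription factors that repress or activate them, were also listed, 12 in all, of which 8 passed the filter. The repressors were the abundant ones: *Twist1* measured 36.9 ± 4.66 CPM in Atrx-cKO against 40.3 ± 9.82 in control and *Zeb2* 270 ± 7.63 against 265 ± 11.5 (SD, n = 3 each). *Snai2*, which encodes the repressor SLUG, measured 37.6, 31.9 and 49.0 CPM in Atrx-cKO and 50.0, 49.2 and 52.8 in control, without overlap. Its log2 fold change was -0.36 (SE 0.15), with an unadjusted p of 0.0432 and an adjusted p of 0.992 in edgeR. In this list 0 genes passed the adjusted test in edgeR or DESeq2, and among the 8 tested *Snai2* was the only one at an unadjusted p under 0.05 (beside 2.05% of all genes in that direction) or without overlap (beside 4.01%). The median log2 fold change was -0.051.

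*Ocln* shares chromosome 13 with *Cartpt*, a neuropeptide precursor gene, and the gap between the genes is 595415 bases with 10 tested genes inside it. *Cartpt* was higher in Atrx-cKO, at 162 ± 25.7 against 0.215 ± 0.360 CPM (SD, n = 3), a log2 fold change of 9.75 (SE 0.75, adjusted p = 0.0191, edgeR). The 10 tested genes on either side of *Ocln*, which span chr13:99948530-100833427, had a median log2 fold change of 0.056, beside 0.017 over the 813 tested genes of chromosome 13 and 0.0050 over all. None of the 20 passed edgeR's adjusted test. *Mccc2*, a subunit of the mitochondrial enzyme of leucine breakdown, was the 1 gene at an unadjusted p under 0.05 and the 1 gene that passed in DESeq2, at 16.0 ± 1.19 against 8.92 ± 0.355 CPM (SD, n = 3), with a log2 fold change of 0.84 (SE 0.11, edgeR adjusted p = 0.236). It lies between *Cartpt* and *Ocln*. The gene next to *Ocln* on the *Cartpt* side, the transcription factor subunit gene *Gtf2h2*, measured 18.6 against 16.2 CPM on average, with groups that did not overlap and a log2 fold change of 0.20 (SE 0.10). *Mccc2* and *Gtf2h2* were the 2 of 20 neighbors without overlap, both higher in Atrx-cKO, beside 4.30% of all genes. The 1 neighbor at an unadjusted p and in DESeq2 stands beside 3.64% and 0.142%. On the other side comes *Marveld2*, described above, after 43238 bases with no tested gene. The lowest neighbor was *Taf9*, at -0.69, whose span overlaps that of *Ak6*, so no tested gene within 10 positions of *Ocln* had a log2 fold change near -2.90. Some of the 20, the *Naip* genes among them, have near-identical copies in the region whose reads the counting could have split or dropped.

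**Figure D4:**
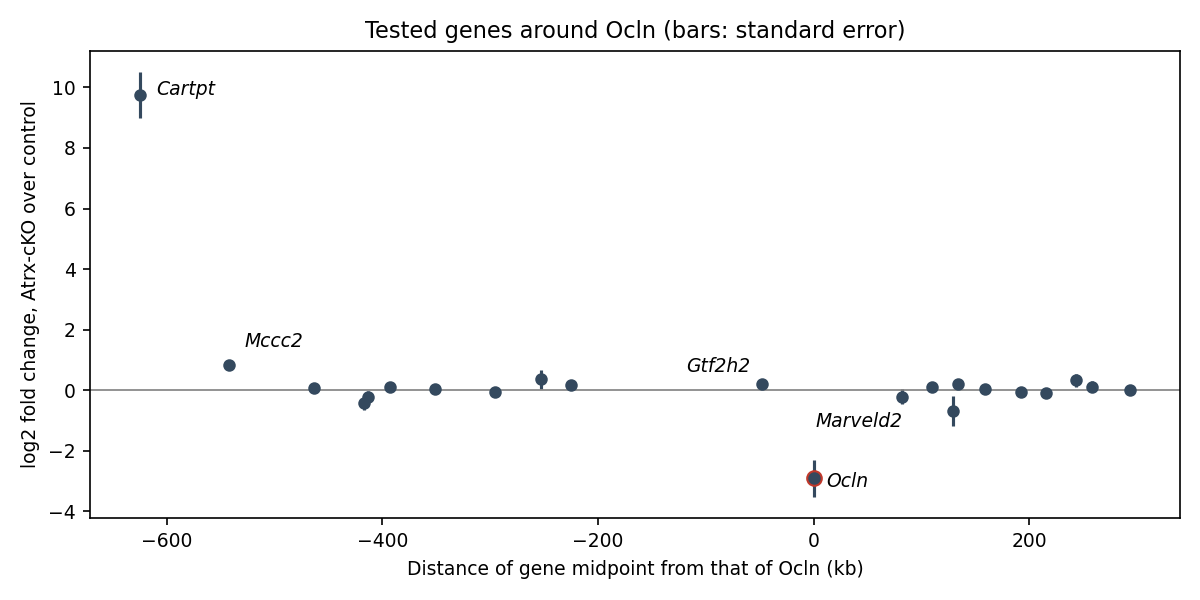
Log2 fold change (Atrx-cKO over control, edgeR, vertical axis) of the tested genes around *Ocln* against the distance of their midpoints from its midpoint in kilobases (horizontal axis), with standard errors as whiskers. *Ocln* lies at -2.90 between neighbors that range from -0.69 to 0.84, and *Cartpt* at 9.75 lies on the same side as *Mccc2*.

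Summed marker levels of the cell types that carry tight junctions were set beside *Ocln*. Endothelial markers, led by *Plvap* and *Cdh5*, summed to 1310 to 1357 CPM in Atrx-cKO and 1161 to 1316 in control, and 3 of the 12 (*Kdr*, *Tek* and *Eng*) were higher in Atrx-cKO without overlap, beside 4.30% of all genes. Nerve sheath markers, led by *Pmp22* and *Mbp*, summed to 137 to 153 CPM in Atrx-cKO and 136 to 150 in control, with 0 of 12 apart. Epithelial and keratinocyte markers, led by *Sfn* and *Epcam*, summed to only 19.4 to 23.9 and 19.7 to 25.0 CPM, with 0 of 12 apart, and the basal keratin *Krt5* was at 0 in every library. The sums of Atrx-cKO and control libraries overlapped in these 3 lists, in the endothelial list through control replicate 1 alone. The markers of other cells were the erythroid list, led by *Slc4a1* and *Alas2*, and the megakaryocyte and platelet list, led by *Ppbp* and *Itga2b*, each with 0 genes apart.

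Bone cell markers gave the following sums. In osteoclast markers, led by *Acp5* and *Ctsk*, the sum was 2338 to 3071 CPM in Atrx-cKO and 2638 to 4153 in control, and 2 of 10, *Oscar* and *Tcirg1*, were lower without overlap, beside 4.01% of all genes. Osteoblast markers, led by *Col1a1* and *Col1a2*, had 1 of 10 lower without overlap, *Ibsp*, beside the same 4.01%. Relative to its own mean over the 6 libraries, *Ocln* was at 1.65, 1.68 and 1.98 in control replicates 1, 2 and 3, where the osteoblast sum was at 0.808, 1.37 and 1.23. Control replicate 1 had the lowest osteoblast sum of the 6 libraries and the lowest *Ocln* level of the 3 controls. That sum is mostly collagen, with *Col1a1* at 53548 and *Col1a2* at 50187 of its 109640 CPM. Other markers varied in this library: *Runx2* was also the lowest of the 6, while *Ibsp* was above all 3 Atrx-cKO libraries. Muscle markers, led by *Myh4* and *Atp2a1*, had 0 of 12 apart and summed to 972, 1096 and 14376 CPM in control replicates 1, 2 and 3, where *Ocln* was at 0.649, 0.661 and 0.777 CPM. The part of any of these cell types in the *Ocln* result was not tested.

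**Figure D5:**
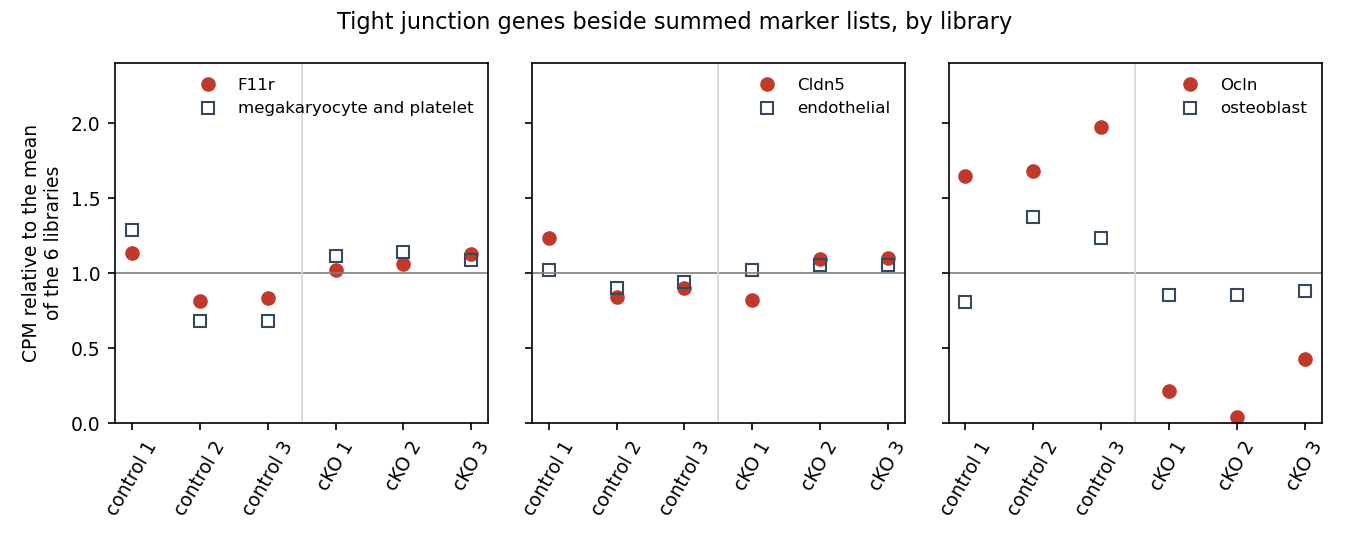
CPM of *F11r*, *Cldn5* and *Ocln* (circles) and summed CPM of the megakaryocyte and platelet, endothelial and osteoblast markers (squares) in each library, each relative to its own mean over the 6 libraries (vertical axis, linear). *F11r* and the platelet list are both highest in control replicate 1, at 1.14 and 1.29, and *Ocln* runs from 0.0445 to 0.432 in Atrx-cKO and from 1.65 to 1.98 in control.

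The genes whose pattern over the 6 libraries was most like that of *Ocln* were sought among 20635 tested genes, by the root mean square difference of log2(CPM + 0.5) after centring each gene on its own mean. They were *Grin2a* (0.147), *Rims1* (0.176), *Ube2ql1* (0.182), *Grm4* (0.187) and *Dnaic2* (0.187), while a gene with no variation would differ by 0.525 and the median gene by 0.549. *Grin2a*, a subunit of the NMDA glutamate receptor, measured 0.599, 0.613 and 1.09 CPM in Atrx-cKO and 1.81, 1.62 and 1.74 in control. *Rims1*, a scaffold of the presynaptic active zone, measured 1.41 ± 0.393 against 3.03 ± 0.635 CPM, and *Grm4*, a metabotropic glutamate receptor, 0.436 ± 0.0170 against 1.11 ± 0.109 (SD, n = 3 each). *Ube2ql1*, a gene of the ubiquitin-conjugating enzyme family that also lies on chromosome 13, measured 3.36 ± 0.316 against 6.23 ± 1.20, and *Dnaic2*, an axonemal dynein chain, 0.315 ± 0.0853 against 0.884 ± 0.254 (SD, n = 3 each). All 5 were lower in each Atrx-cKO library than in each control library, as a pattern chosen for likeness to *Ocln* must nearly be. Their log2 fold changes were -0.89 to -1.48. The sizes follow from the method: the 0.5 added exceeds the mean *Ocln* level of 0.0909 CPM in Atrx-cKO and damps its difference. More abundant genes therefore match it at smaller fold changes.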

How the data were processed

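Tibia RNA of 3 Atrx-cKO and 3 control mice was sequenced as paired 150-bp reads. The authors deposited raw counts per gene, 1 table per library, which were used as they stand. The submitters' processing notes name DESeq2 and GRCm38, and the aligner and counting program are not given in the sources used here. Rows that name no gene, of which reads on no feature made up 51.6% to 52.4% of all counts, entered neither library sizes nor tests. GENCODE M21 named 55141 of the 55401 identifiers, and the symbols *Cldn25* and *Ahsp* matched none.

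Genotypes came from the sample labels. Counts were fitted with edgeR 4.0.16 in R 4.3.3 (TMM, filterByExpr at its minimum count of 10, glmQLFit and glmQLFTest with genotype alone), with Benjamini-Hochberg adjustment over all 20636 tested genes and a threshold of 0.05. CPM are counts divided by TMM-scaled library sizes, and values per kilobase use the exonic length of the annotation. No library was left out. Libraries of 1 genotype differed by more than sampling noise (chi-square per degree of freedom of at least 17.1). The p-values set the difference between genotypes against the spread between these mice. The fits were tested on simulated counts in which 200 of 20636 genes were changed, 2-fold or 4-fold in equal numbers. At an adjusted p under 0.05 edgeR recovered 45 of the 2-fold and 82 of the 4-fold changes, with 7 false calls. DESeq2 recovered 63 and 85, with 49 false calls. A gene that does not pass in edgeR may thus still differ. DESeq2 made more false calls in this 1 simulation, whose counts were drawn with dispersions estimated by edgeR. It cannot give the share of false calls in the real libraries.

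The 9 genes and all lists were chosen with earlier results of these data known. The genes named were these 9, the 3 with the highest level per length in each other pathway list, the 2 with the highest CPM in each marker list, the 5 most like *Ocln*, the nearest tested gene on each side of it, *Cartpt*, *Mccc2*, and any listed gene or neighbor past the threshold. Other genes were named after their values were seen. Alternatives were RLE factors, plain library size, no filter, a mean of at least 10 counts, DESeq2 1.42.0, a replicate block and leaving out each library.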

Additional observations from a re-analysis of the deposited data

How the results depend on the processing

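Over the 12 alternatives the log2 fold change of *Ocln* ran from -3.69 (without Atrx-cKO replicate 3) to -2.43 (without Atrx-cKO replicate 2), and its level rests on few counts. *Ocln* was picked for its low level and its groups did not overlap, so its direction under these alternatives was fixed beforehand and carries no evidence. With plain library size the log2 fold change of *Tjp1* became 0.019, as the median of all tested genes moved from 0.0050 to 0.077. Leaving out 1 library at a time gave -0.37 to -0.070 for *Marveld2*, -0.092 to -0.039 for *Tjp1*, 0.12 to 0.38 for *F11r*, -0.0044 to 0.39 for *Tjp3*, -0.089 to 0.21 for *Cldn5*, -0.046 to 0.13 for *Cldn12* and -0.23 to 0.71 for *Cgn*. No other tight junction gene, regulator, connexin or pannexin passed under any alternative, and 1 neighbor of *Ocln* passed with no filter and 1 with DESeq2. Over all genes, at an adjusted p under 0.05 and a log2 difference of 1 or more either way, 3 were higher and 0 lower. DESeq2 gave 10 and 13, no filter gave 4 and 1, and leaving out 1 library gave 0 to 5 and 0 to 1. The count of higher genes fell to 0 without Atrx-cKO replicate 1 or 2 or control replicate 2, was 1 when Atrx-cKO replicate 3 was dropped and 5 when control replicate 3 was. The cause of these changes was not tested. Same-numbered mice did not deviate together (correlations -0.025, 0.062 and -0.071). The sample labels do not say whether the numbers pair mice, and these correlations cannot decide it. The replicate block gave 0 higher and 0 lower genes and -3.06 for *Ocln*.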

Other observations

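Gap junction genes were listed beside the tight junction genes, since they join neighboring cells in bone. Of 23 connexin and pannexin genes, 9 were tested, 2 had no count in any library, and 0 passed an adjusted p of 0.05 in edgeR's quasi-likelihood test, an unadjusted p under 0.05, or DESeq2's adjusted test. Their median log2 fold change was -0.15, with a range of -0.36 to 0.29 and overlapping groups for each gene. *Gja1*, which encodes connexin 43, the main gap junction protein of osteoblasts and osteocytes, measured 1014 ± 115 CPM in Atrx-cKO and 1301 ± 302 in control (SD, n = 3 each), with -0.36 as log2 fold change (SE 0.18, edgeR adjusted p = 0.992). Control replicate 1, at 955 CPM, lay inside the Atrx-cKO range of 891 to 1118, and the other two controls were at 1513 and 1434. *Gja4*, a connexin of arterial endothelium, measured 8.59 ± 2.16 against 8.73 ± 1.73 CPM, and *Panx3*, a pannexin of bone and cartilage, 12.6 ± 2.06 against 10.4 ± 4.44 (SD, n = 3 each).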
